A study of Mus musculus with 3 samples.

Results

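Expression of the endothelin, angiotensin and natriuretic peptide genes was followed in mouse cardiac myofibroblasts that were attached to plastic, held in suspension and attached again. The members were 10 genes: the peptide Edn1, its converting enzyme Ece1 and its receptors Ednra and Ednrb, the angiotensin-converting enzyme Ace with the receptors Agtr1a and Agtr2, and the natriuretic peptide receptors Npr1, Npr2 and Npr3. They were selected on a shared role in signalling and on the measured values of these same arrays, by which Ednrb stood among the genes gained in suspension, so their levels are given as a description without a test. The arrays carried a probe for 20658 genes with a symbol, and 15393 of them were well above background (below also called detected) on at least 1 array. All 10 members had a probe, and 8 were among the measured genes. Agtr2 and Npr1 stayed below the detection limit throughout.

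Myofibroblasts are the contractile fibroblasts that lay down matrix in the injured heart. The cells came from C57BL/6J male mice whose left anterior descending coronary artery had been tied permanently, and the hearts were taken 3 days later. The labels give an age of 8 weeks in the sample characteristics and of 10 weeks at ligation in the protocol. All 3 groups shared the ligation, digestion with collagenase and elastase, a night of attachment to plastic and the removal of cells that carried CD45, a surface protein of leukocytes. The adherent group was cultured on plastic plates, the non-adherent group was moved from plates into suspension and the re-adherent group was returned from suspension to plates. Each group was represented by 1 array of RNA mixed from several hearts, so no difference below has a replicate check and no p-value is given. The states followed each other in culture, so the state and the total time in culture cannot be told apart, and per the study's methods many cells were lost by detachment-induced death in suspension.

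Endothelin, angiotensin II and the natriuretic peptides are small peptides that set the tone of vessels and act on fibroblasts of the heart. Endothelin and angiotensin II are cut from longer precursors, signal mainly through receptors coupled to Gq and related G proteins, and are known to promote contraction and fibrosis. The natriuretic peptides oppose many of these actions through receptors that make cyclic GMP, and a further receptor clears them.

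Signal is given as the processed intensity of the scanner software, and differences are given on the log2 scale after each array was scaled to its 75th percentile. These percentiles were 651 units in adherent cells, 697 in suspension and 541 after re-adhesion, and a gene called higher or lower differed by more than 2-fold between arrays. Of 59305 non-control spots, between 53.9% and 59.9% were well above background. The technical error of a difference, from the software's errors of both spots, was 0.20 at the median gene of every pair. It leaves out any variation between cultures, and the number of arrays limits the precision. All 10 fibroblast marker genes, including the collagen gene Col1a1 and the receptor gene Pdgfra, were well above background on all 3 arrays. Detection alone cannot settle which cells were present. In suspension all 12 endothelial and all 13 measured macrophage markers were well above background too. No member spot was flagged by the software. A signal in these pooled cells cannot tell fewer cells of a type from less RNA in each cell.

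The sequences before the transcription start of Edn1 and of its receptors are shown because the peptide and the receptors differed most among the members on both steps, and in opposite directions. They are the 250 bases before the start in RefSeq, assembly GRCm38.p6, on the strand of the gene. Capitals mark the TEAD motif, the site of the TEAD transcription factors.
Edn1, chr13:42301226-42301475, plus strand: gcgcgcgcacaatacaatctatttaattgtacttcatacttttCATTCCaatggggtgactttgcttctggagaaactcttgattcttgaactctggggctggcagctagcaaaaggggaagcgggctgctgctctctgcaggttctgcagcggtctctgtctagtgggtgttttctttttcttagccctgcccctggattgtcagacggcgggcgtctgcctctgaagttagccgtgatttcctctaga
Ednra, chr8:77724453-77724702, minus strand: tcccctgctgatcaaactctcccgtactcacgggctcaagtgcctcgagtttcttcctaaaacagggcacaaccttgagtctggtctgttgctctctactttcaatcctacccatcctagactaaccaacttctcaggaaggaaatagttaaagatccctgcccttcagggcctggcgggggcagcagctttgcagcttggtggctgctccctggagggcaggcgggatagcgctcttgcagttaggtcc
Ednrb, chr14:103843702-103843951, minus strand: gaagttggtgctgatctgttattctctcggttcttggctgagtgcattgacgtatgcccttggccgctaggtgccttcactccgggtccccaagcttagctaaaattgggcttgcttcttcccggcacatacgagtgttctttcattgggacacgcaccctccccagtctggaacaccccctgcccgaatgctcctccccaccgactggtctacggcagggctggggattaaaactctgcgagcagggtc

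Both strands were searched for the TEAD motif GGAATG, the AP-1 motif TGANTCA, the CArG box of serum response factor, the E-box CACGTG and the motif TATAAA. A TEAD match lay 207 bases before the start of Edn1, on the opposite strand, and 12.6% of 32851 promoter windows of the same length held this motif. The windows of Ednra and Ednrb held none of these letters. Of 9 members with an entry, Ece1 had an E-box 90 bases before the start of 1 of its transcripts, against 6.02% of all windows. Ace had TATAAA 31 bases before a start, on the opposite strand, against 12.4%. The AP-1 motif, found in 6.75% of windows, and the CArG box, found in 1.47%, matched no member. A match is a description of the letters only.

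Edn1, which encodes the precursor of endothelin, was high on plastic and close to the detection limit in suspension. Its probe, for the transcript NM_010104, was spotted 10 times on each array. Mean signal was 1764 ± 122 in adherent cells, 22.6 ± 5.19 in suspension and 576 ± 28.6 after re-adhesion (SD, n = 10 spots of the same array). The spots ranged from 1565 to 1945, from 11.8 to 29.0 and from 538 to 628 in that order. Spots of an array repeat the same RNA, so their spread holds no variation between cultures. In suspension 8 of the 10 spots were well above background.

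Edn1 was 85.7-fold lower in suspended than in adherent cells, a log2 difference of -6.42 ± 0.13 (SE over spots). Only 20 of the 15393 genes had a lower value in that comparison under the same scaling. On re-adhesion Edn1 was 33.7-fold higher than in suspension, a difference of 5.07 ± 0.12. It remained 2.55-fold below the adherent array, with a difference of -1.35 ± 0.04. Under the 11 alternative settings the step into suspension lay between -6.77 and -4.43 and the step on re-adhesion between 3.17 and 5.07. The smallest values came with the normexp background correction, which raises dim signals.

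**Figure D1:**
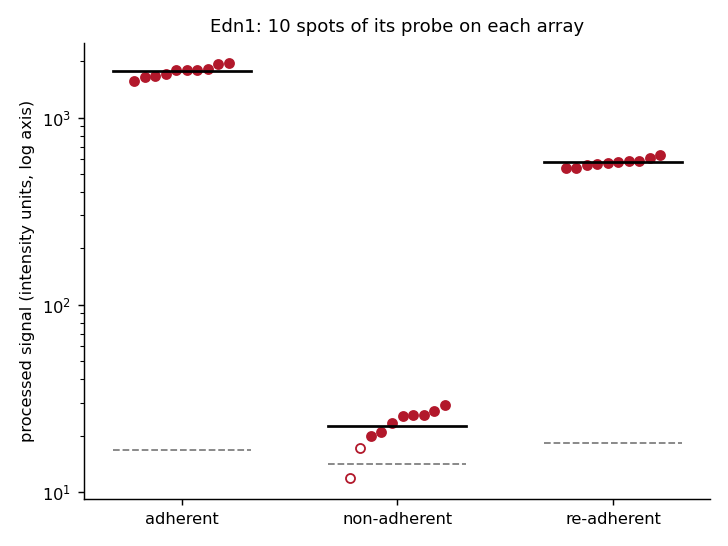
Processed signal of Edn1 in intensity units (vertical log axis) at the 10 spots of its probe in each of the 3 states, sorted within each array. Filled points are well above background and hollow points are not, solid lines mark the means (1764, 22.6 and 576) and dashed lines the detection limit, the lowest signal of any spot detected on that array.

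Ece1, the protease that cuts big endothelin to the active peptide, moved in the same order at a smaller size. The signal of its probe (NM_199307) was 411 in adherent cells, 127 in suspension and 271 after re-adhesion. It was therefore lowest in suspension, 3.46-fold below the adherent array (log2 difference -1.79, technical error 0.21) and 2.75-fold below the re-adherent array (difference 1.46, error 0.21). Re-adherent and adherent cells differed by 1.26-fold (difference -0.33, error 0.21). The call of a lower level in suspension was kept in all 11 processing alternatives, between -2.14 and -1.30.

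Ednra and Ednrb, the receptors of endothelin, ran opposite to the peptide. Ednra (NM_010332), the receptor that mediates contraction in smooth muscle, had a signal of 209 in adherent cells, 1858 in suspension and 36.7 after re-adhesion. The non-adherent array was the highest by far and the re-adherent array the lowest. Ednra was 8.30-fold higher in suspension than on plastic (log2 difference 3.05, technical error 0.21) and 39.4-fold lower after re-adhesion (difference -5.30, error 0.25). Re-adherent cells were also 4.74-fold below adherent cells (difference -2.24, error 0.25), and this difference stayed between -2.75 and -1.32 in the alternatives.

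Ednrb, the receptor that binds all endothelins alike and is known in the heart mainly from endothelial cells, was read by 2 probes. The brighter probe, for NM_007904, had a signal of 102 in adherent cells, 2840 in suspension and 47.5 after re-adhesion. The other probe gave 45.8, 1441 and 10.8, with the re-adherent value not well above background. Both probes were thus high in suspension and low on both plastic arrays. By the brighter probe Ednrb was 26.0-fold higher in suspension (log2 difference 4.70, technical error 0.21) and 46.5-fold lower after re-adhesion (difference -5.54, error 0.26), and by the other probe 29.4-fold higher and at least 61.1-fold lower. A bound of this kind divides the bright signal by the dim one, or by the detection limit of the dim array where that is higher.

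Ednrb was the member named for its gain in suspension, since it was over 16-fold higher there and over 16-fold lower after re-adhesion. Edn1 passed 16-fold on both steps in the opposite direction. Ednra, the member nearest to the threshold in the direction of Ednrb, was outside it on the first step at 8.30-fold and past it on the second at 39.4-fold. Of the 15393 genes, 42 had a larger increase than Ednrb in suspension and 33 a larger decrease on re-adhesion. Against the adherent array, re-adherent Ednrb was 1.79-fold lower (difference -0.84, error 0.27), which did not count as lower. It would count with the mean of both probes (-1.33), with the authors' scaling (-1.01), with no scaling (-1.10) or with scaling to the spike-in probes (-1.35). Markers of endothelial cells moved beside both receptors. Of 12, 7 were over 2-fold higher in suspension and 9 over 2-fold lower after re-adhesion, beside 17.2% and 16.3% of all genes. The part of these markers in the receptor values was not tested.

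**Figure D2:**
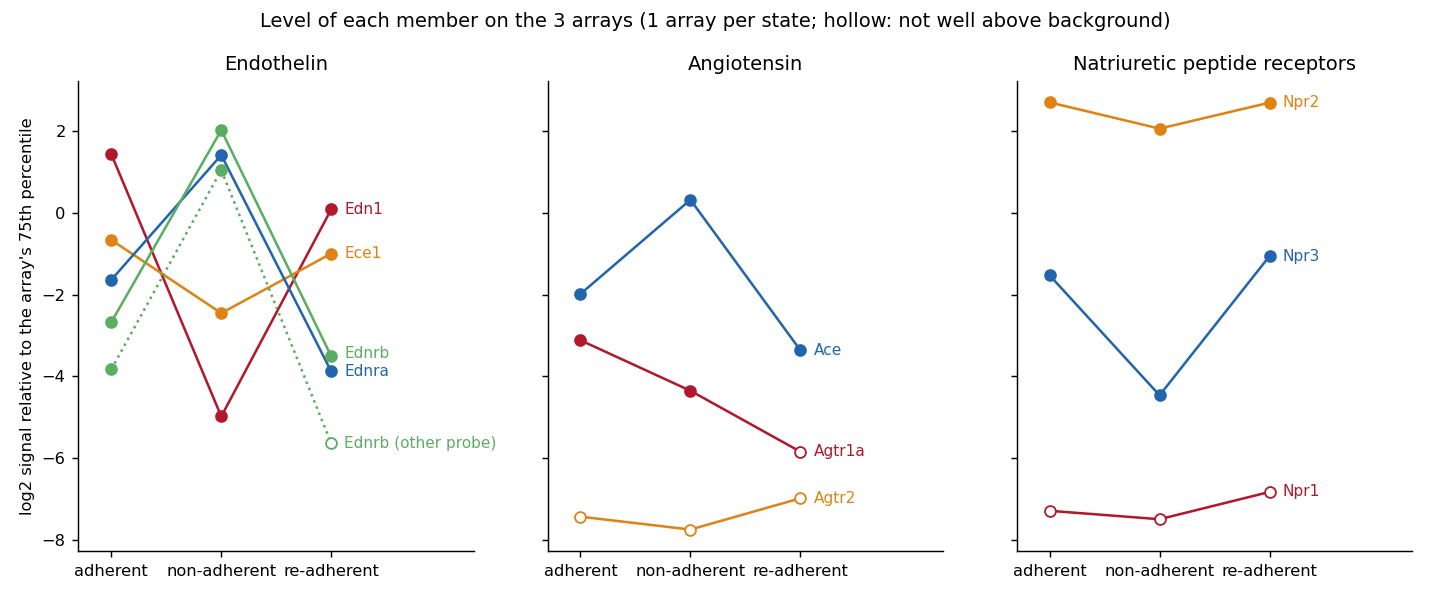
Level of each member on the 3 arrays, as log2 signal relative to the 75th percentile of the array, with 1 array per state and hollow points where a probe was not well above background. Edn1, Ece1 and Npr3 dip on the non-adherent array and Ednra, Ednrb and Ace peak there, whereas levels of different genes are not comparable with each other.

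Ace (NM_009598), which converts angiotensin I to angiotensin II and also sits on endothelial cells, followed the order of the endothelin receptors. Its signal was 164 in adherent cells, 870 in suspension and 52.6 after re-adhesion, so the highest value was again in suspension. It was 4.94-fold higher in suspension than on plastic (log2 difference 2.31, technical error 0.21) and 12.9-fold lower after re-adhesion (difference -3.69, error 0.24). The re-adherent array was 2.60-fold below the adherent array (difference -1.38, error 0.24). With normexp this last difference was -0.68 and no longer past 2-fold. The endothelial markers moved beside Ace as well, and their part was not tested.

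Agtr1a (NM_177322), the main receptor of angiotensin II in the mouse, became dimmer from array to array. Its signal was 74.9 in adherent cells, 34.0 in suspension and 9.40, not well above background, after re-adhesion. It was 2.36-fold lower in suspension than on plastic (log2 difference -1.24, technical error 0.26). The re-adherent value was at least 1.44-fold below the non-adherent value and at least 3.40-fold below the adherent value. These signals were close to background, and with normexp the differences were -0.61 in suspension, -0.04 on re-adhesion and -0.65 between the plastic arrays, none of them past 2-fold. The close copy Agtr1b was not detected, and whether either probe reads the other transcript was not tested.

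Agtr2 (NM_007429), the second receptor of angiotensin II, had signals of 3.75, 3.23 and 4.26 in the same order, all below the detection limit. No fold is given for it.

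The precursor and several peptidases of the angiotensin system were also higher in suspension. Of 10 other measured genes of this group, 6 were over 2-fold higher in suspended than in adherent cells and 0 were lower, beside 17.2% and 14.7% of all genes, with a median difference of 1.87 against -0.07 over all genes. On re-adhesion 0 were higher and 5 lower, beside 15.6% and 16.3% of all genes. Macrophage markers moved beside this group, with 12 of 13 higher in suspension and 12 lower after re-adhesion, and their part was not tested. Agt, the precursor angiotensinogen, had a signal of 62.8 in adherent cells, 2021 in suspension and 99.8 after re-adhesion. It was thus 30.1-fold higher in suspension and 15.7-fold lower after re-adhesion.

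Of the aminopeptidases that trim angiotensin II further, Enpep had signals of 32.4, 182 and 5.07, the last not well above background. It was 5.26-fold higher in suspension and at least 7.72-fold lower after re-adhesion. Anpep had signals of 6858, 72703 and 7121, a 9.90-fold higher value in suspension. Lnpep, which binds a shorter angiotensin, differed by -0.69 in suspension and 0.60 on re-adhesion, within 2-fold. Atp6ap2, the prorenin receptor, was 3.28-fold higher in suspension and 2.20-fold lower after re-adhesion.

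Ren1, renin itself, had signals of 44.5, 49.2 and 45.2, with differences of 0.05 in suspension (technical error 0.26) and 0.24 on re-adhesion (error 0.27). Agtrap, which binds the angiotensin II receptor inside the cell, was 1.35-fold higher in suspension. Mas1, the receptor of a shorter angiotensin, and Ctsg, a leukocyte protease able to form angiotensin II, were detected in suspension only. Their values there were at least 1.65-fold and at least 4.08-fold above the adherent array. Mas1, at a log2 difference of 0.99, was not counted as higher. Of the 6 genes counted as higher, 1 that is not reported here was counted by a bound under 2-fold. Cma1, the mast cell chymase, and Cltrn were not detected on the 3 arrays.

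Among the natriuretic peptide receptors, the clearance receptor Npr3 was low in suspension and the cyclase Npr2 changed little. Npr3 (NM_008728) had a signal of 225 in adherent cells, 31.5 in suspension and 260 after re-adhesion. It was 7.66-fold lower in suspension (log2 difference -2.94, technical error 0.25) and 10.6-fold higher after re-adhesion (difference 3.41, error 0.25). The plastic arrays were close to each other, at a difference of 0.47 (error 0.21) that turned to -0.04 when the arrays were scaled to the spike-in probes. With normexp the step into suspension was -1.68 and the step on re-adhesion 2.04.

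Npr2 (NM_173788), the guanylyl cyclase that responds to C-type natriuretic peptide, had a signal of 4245 in adherent cells, 2911 in suspension and 3515 after re-adhesion. It was 1.56-fold lower in suspension (log2 difference -0.64, technical error 0.20) and equal on both plastic arrays within error (difference -0.01, error 0.20). It stayed within 2-fold in every comparison and every alternative. Npr1 (NM_008727), the cyclase that responds to the atrial and B-type peptides, had signals of 4.15, 3.85 and 4.75, below the detection limit on all 3 arrays.

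The peptides themselves did not move together. Nppb, the B-type peptide, had a signal of 205 in adherent cells, 36.9 in suspension and 86.8 after re-adhesion, 5.94-fold lower in suspension and 3.03-fold higher after re-adhesion. Nppa, the atrial peptide, had signals of 97.6, 207 and 93.8, with a difference of 0.99 (technical error 0.07) that lay just inside 2-fold. Nppc, the ligand of Npr2, was well above background in suspension only, at 27.2, at least 1.52-fold above the adherent array.

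Of the enzymes that process these peptides, Furin differed by -0.11 in suspension, and Pcsk6, which activates the atrial peptide convertase, had signals of 9593, 986 and 7048. Pcsk6 was thus 10.4-fold lower in suspension and 9.20-fold higher after re-adhesion. The convertase Corin and the peptide Ostn, a ligand of the clearance receptor, were not detected on the 3 arrays. Of 5 measured genes of this group, 1 was called higher in suspension, Nppc, by a bound under 2-fold, and 2 were called lower, beside 17.2% and 14.7% of all genes.

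No second ligand of the endothelin family was detected. Edn2, Edn3 and the endothelin-cleaving enzyme Kel were not well above background. Ece2, a relative of Ece1, had signals of 157, 140 and 54.9 and differed by -0.27 in suspension (technical error 0.21), and was 2.39-fold lower in re-adherent than in adherent cells. Mme, neprilysin, which degrades natriuretic peptides and endothelin, had signals of 39.5, 169 and 5.99, the last not well above background. It was 3.98-fold higher in suspension and at least 7.14-fold lower after re-adhesion. Ecel1, a further relative, had signals of 28.3, 73.9 and 13.5 and was 2.44-fold higher in suspension.

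Counted together, 3 of the 8 measured members were over 2-fold higher in suspension than on plastic (Ednra, Ednrb and Ace), beside 17.2% of all genes. The 4 lower members were Edn1, Ece1, Agtr1a and Npr3, beside 14.7% of all genes. After re-adhesion 3 members were higher (Edn1, Ece1 and Npr3), beside 15.6% of all genes, and 4 were lower (Ednra, Ednrb, Ace and Agtr1a), beside 16.3%. Agtr1a counted there by a signal that was not well above background, and its bound did not reach 2-fold. Both steps share the non-adherent array, so the 2 sets of values are not independent. The median difference of the 8 members was -0.94 in suspension and -0.43 on re-adhesion, against -0.07 and 0.08 over all genes. Past 4-fold, 3 members were higher and 2 lower in suspension, beside 7.61% and 5.34% of all genes, and 2 were higher and 3 lower after re-adhesion, beside 5.7% and 6.05%. The values of these arrays helped to choose the members, so the shares are printed for reference only.

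Re-adherent cells did not return to the adherent level for every member. Compared with the adherent array, 0 members were over 2-fold higher, beside 4.84% of all genes, and 4 were lower (Edn1, Ednra, Agtr1a and Ace), beside 4.9% of all genes. Ece1, Ednrb, Npr2 and Npr3 lay within 2-fold, Ednrb by its brighter probe. The other probe of Ednrb was at least 2.08-fold lower, with a re-adherent signal not well above background. The median difference was -1.09, against 0.06 over all genes. With normexp the count of lower members was 2, since Agtr1a and Ace were then within 2-fold. Past 4-fold, 0 members were higher and 2 lower, Ednra and Agtr1a, beside 1.36% and 1.29% of all genes, although the bound of Agtr1a was 3.40-fold.

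**Figure D3:**
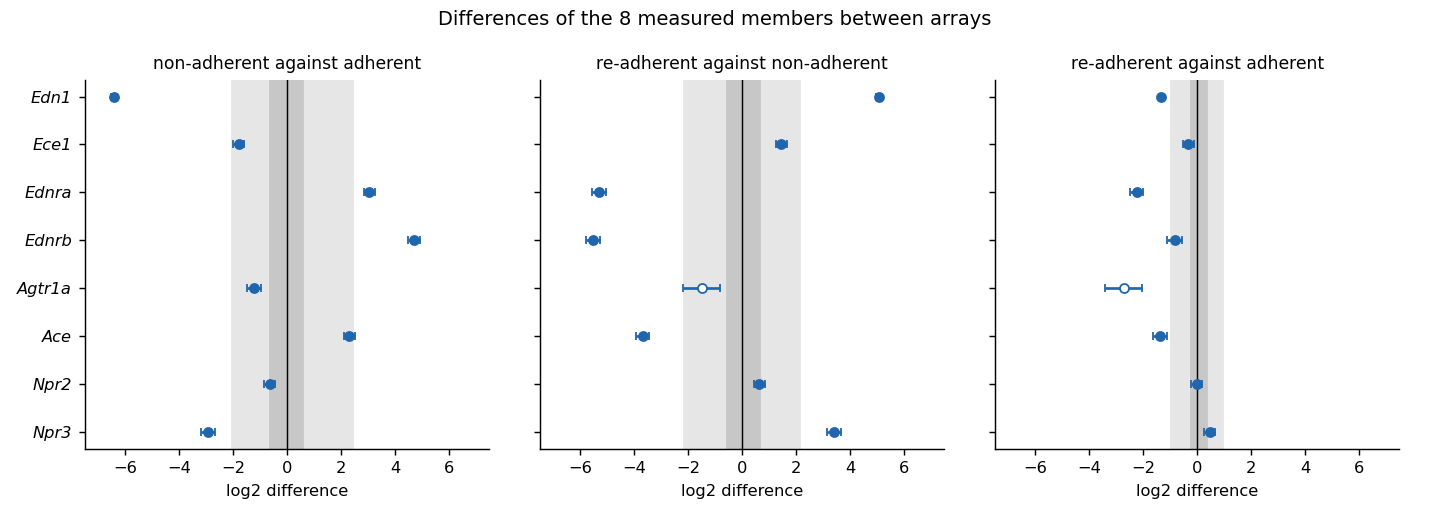
Log2 difference of the 8 measured members in each pair of arrays, with bars for the technical error and hollow points where the re-adherent signal was not well above background. The dark and light grey bands hold the middle 50% and 90% of all 15393 genes, and Edn1, Ednra, Ednrb and Npr3 lie outside the light band on both steps.

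Genes that carry the signals inside the cell were then read from a list of 74 other genes of these pathways, of which 66 were measured. On the non-adherent against the adherent array 22 of the 66 were higher and 20 lower, beside the same 17.2% and 14.7% over all genes, and the median difference was 0.08. From suspension to re-adhesion 18 were higher and 21 lower, beside 15.6% and 16.3% of all genes. Between re-adherent and adherent cells 3 were higher and 8 lower, beside 4.84% and 4.9% of all genes. The last count depended on the processing, from 2 lower genes with normexp to 16 with spike-in scaling.

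In the cyclic GMP arm 3 of 12 measured genes were higher and 5 lower in suspension, beside 17.2% and 14.7% of all genes, with a median difference of -0.79. The cyclic GMP-dependent kinases were among the lower genes. Prkg2 had signals of 624, 26.2 and 423, again from adherent to re-adherent cells, 25.5-fold lower in suspension and 20.8-fold higher after re-adhesion. Prkg1 had signals of 849, 279 and 1213, 3.25-fold lower and then 5.59-fold higher. Mrvi1, a substrate of Prkg1 on the calcium store, was 5.80-fold lower in suspension and 5.49-fold higher after re-adhesion. The subunits of soluble guanylyl cyclase, the nitric oxide receptor, went opposite ways. Gucy1a1 was 4.31-fold higher in suspension and Gucy1b1 2.25-fold lower.

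Phosphodiesterases, which end the cyclic GMP signal, were divided as well. Pde2a was 3.57-fold higher in suspension and Pde9a 2.98-fold higher, whereas Pde3a was 2.68-fold lower. Pde5a, the enzyme specific for cyclic GMP in smooth muscle, had signals of 598, 617 and 437 and stayed within 2-fold. Pde1c was detected after re-adhesion only, at least 2.25-fold above suspension.

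In the G protein arm 6 of 24 measured genes were higher and 7 lower in suspension, beside 17.2% and 14.7% of all genes, with a median difference of 0.22. Gnaq, the main G protein of the endothelin and angiotensin receptors, differed by 0.32, while its relative Gna11 was 2.01-fold lower in suspension and 3.43-fold higher after re-adhesion. Plcb4, a phospholipase that acts below Gq, was 6.05-fold lower in suspension. Rgs2, which shuts off Gq, had signals of 1826, 20541 and 3612. It was 10.5-fold higher in suspension, and re-adhesion left it 4.42-fold lower. Rgs4, which has a similar activity, was in contrast at least 7.79-fold lower in suspension, where it was not well above background.

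The proteins that desensitise receptors also differed. The arrestins Arrb1 and Arrb2 were 4.44-fold and 5.73-fold higher in suspension, and the receptor kinase Grk2 was 2.59-fold higher. The kinase Grk5 was 3.79-fold lower in suspension and 5.10-fold higher after re-adhesion. Itpr1, a calcium channel of the internal store, was 2.65-fold lower in suspension.

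Of 12 measured genes that angiotensin II or endothelin are known to induce in fibroblasts, 4 were higher and 6 lower in suspension, beside the same shares of all genes, with a median difference of -0.93. Among the lower genes, Acta2, the smooth muscle actin of myofibroblasts, was 99.4-fold lower and then 94.9-fold higher. The matricellular genes Ccn1 and Ccn2 were 22.6-fold and 17.1-fold lower, and the cytokine Il6 was 30.1-fold lower. Fn1, fibronectin, was 2.24-fold lower. The higher genes were Fos (14.5-fold), Spp1 (5.84-fold), Tgfb1 (4.13-fold) and Egr1 (2.04-fold). On re-adhesion Fos was 35.0-fold lower and Egr1 5.67-fold lower, and both were then below the adherent array, by 2.41-fold and 2.77-fold.

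**Figure D4:**
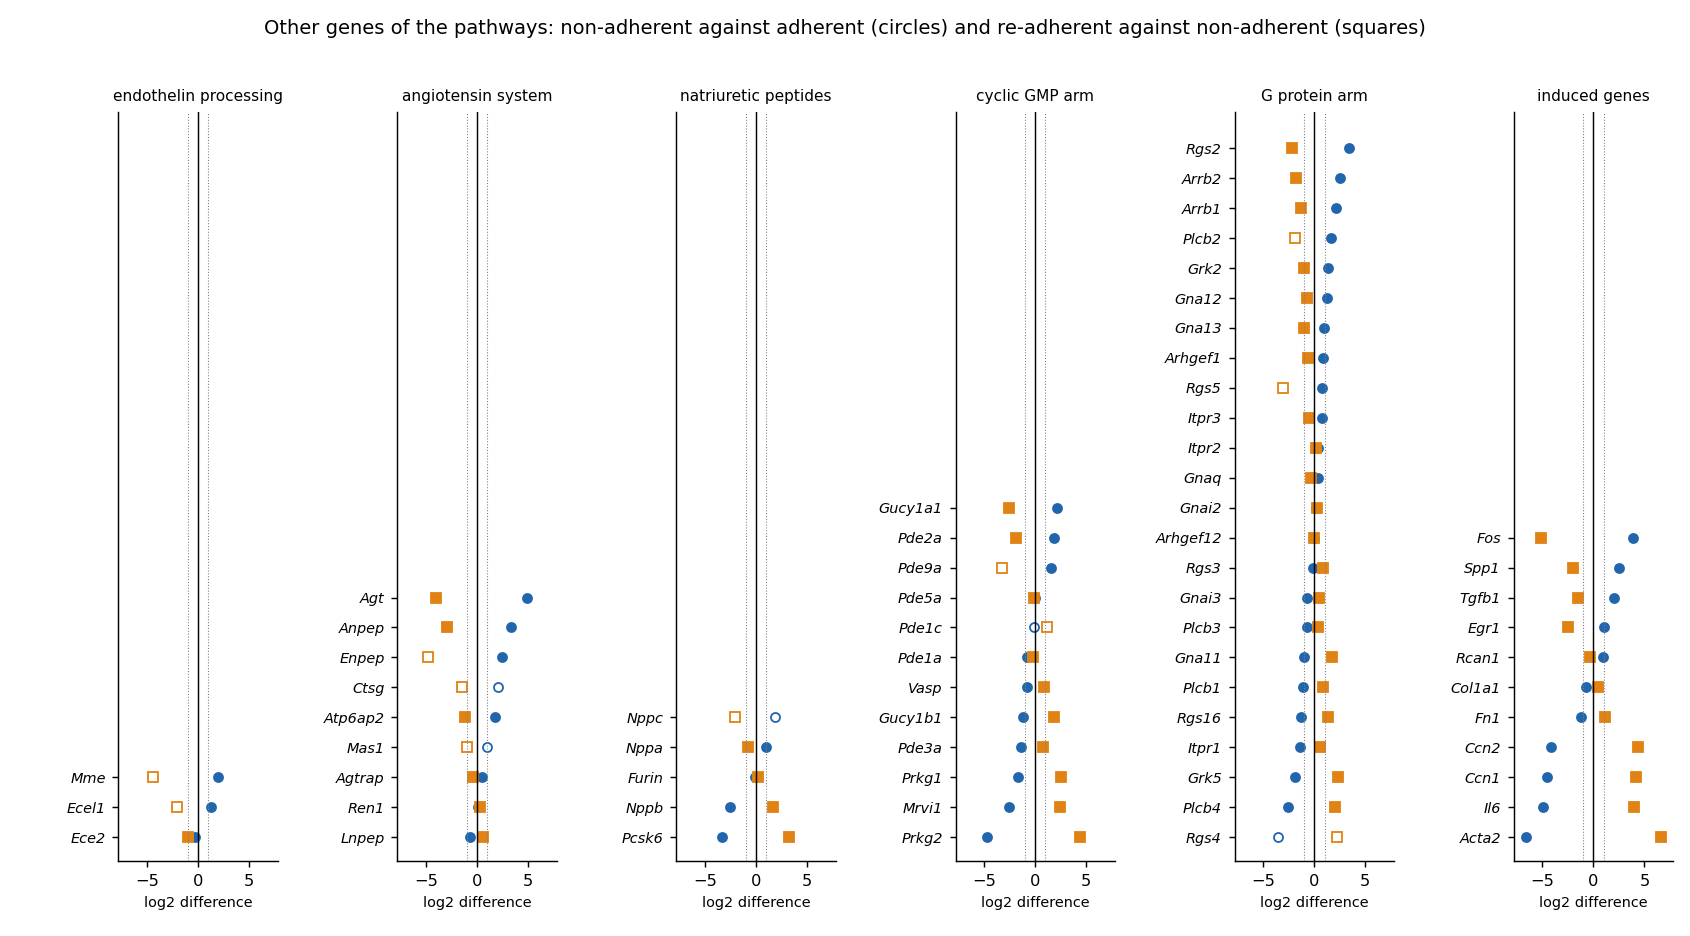
Log2 differences of 64 of the 66 other measured genes of the pathways in 6 groups, with circles for non-adherent against adherent and squares for re-adherent against non-adherent. Dotted lines mark 2-fold and hollow symbols a value not well above background on 1 or both arrays. The genes past 2-fold in the angiotensin group all lie to the right in suspension, and the other groups except endothelin processing hold genes on both sides.

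The genes most like Ednrb and Edn1 were ranked by the distance of their 3 log2 differences from those of the member. The ranking covered the 13475 genes well above background on all arrays, less the member itself. The nearest to Ednrb were Serpina3n at a distance of 0.41, Krtap11-1 (0.51), Saa3 (0.71), Fbln7 (0.87) and Fos (1.03). Serpina3n and Saa3 encode secreted proteins of the acute phase response. Serpina3n differed by 4.52 in suspension and -5.20 on re-adhesion, against 4.70 and -5.54 for Ednrb. The nearest to Edn1 were Col11a1 (0.24), Ccl17 (0.39), Aif1l (1.13), Ptx3 (1.16) and Vgf (1.28). Col11a1, a fibrillar collagen gene, differed by -6.23 and 4.95, against -6.42 and 5.07 for Edn1. The likeness rests on 3 arrays.

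Markers of other heart cells differed between the arrays alongside Ednra, Ednrb, Ace and Agt. Of 12 measured endothelial markers, 7 were higher and 1 lower in suspension, beside 17.2% and 14.7% of all genes. After re-adhesion 1 was higher and 9 were lower, beside 15.6% and 16.3% of all genes. The medians were 1.18 and -2.67. Re-adherent cells were lower than adherent cells for 7 of the 12, beside 4.9% of all genes. Cdh5, the cadherin of endothelial junctions, had signals of 289 in adherent cells, 2381 in suspension and 26.6 after re-adhesion. This is the order of arrays seen for Ednra, Ednrb and Ace. It was not particular to endothelial markers. The fibroblast markers Lum, with signals of 3275, 41309 and 377, and Dcn, with 45013, 155977 and 13156, had the same order. Col3a1 had it at smaller differences, and the remaining fibroblast markers were not highest in suspension. On the re-adherent array Cldn5, Emcn and Tie1 were not well above background. The summed level of the list was 38.3, 45.3 and 40.2 times the 75th percentile. Kdr, with signals of 9446, 7939 and 10320, and Eng, with 8974, 3658 and 9373, did not follow the order of Cdh5. Neither did Tek, with 138, 135 and 30.3, which was not highest in suspension.

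Macrophage markers were higher in suspension for 12 of 13 measured genes, beside 17.2% of all genes. They were lower again after re-adhesion for 12, beside 16.3%, and higher in re-adherent than in adherent cells for 5, beside 4.84%. Their summed level was 187, 1131 and 377 times the 75th percentile. Ptprc, which encodes the CD45 used for depletion, had signals of 355, 2441 and 532. Of 10 mural markers, for pericytes and vascular smooth muscle, 2 were higher and 3 lower in suspension, beside 17.2% and 14.7% of all genes. The 3 lower genes, Cspg4, Des and Myh11, were each over 4-fold lower. The summed level of the list was 38.3, 59.4 and 36.6. Most of it came from Mcam, with signals of 22201, 38431 and 18611, within 2-fold in every pair. The pericyte channel genes Kcnj8 and Abcc9 had signals of 3.70, 73.5 and 4.07 and of 21.8, 131 and 5.22, well above background in suspension only. Myh11, of contractile smooth muscle, had signals of 213, 6.24 and 33.6. The part of endothelial, macrophage and mural cells in the differences of the members and of the other pathway genes was not tested.

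**Figure D5:**
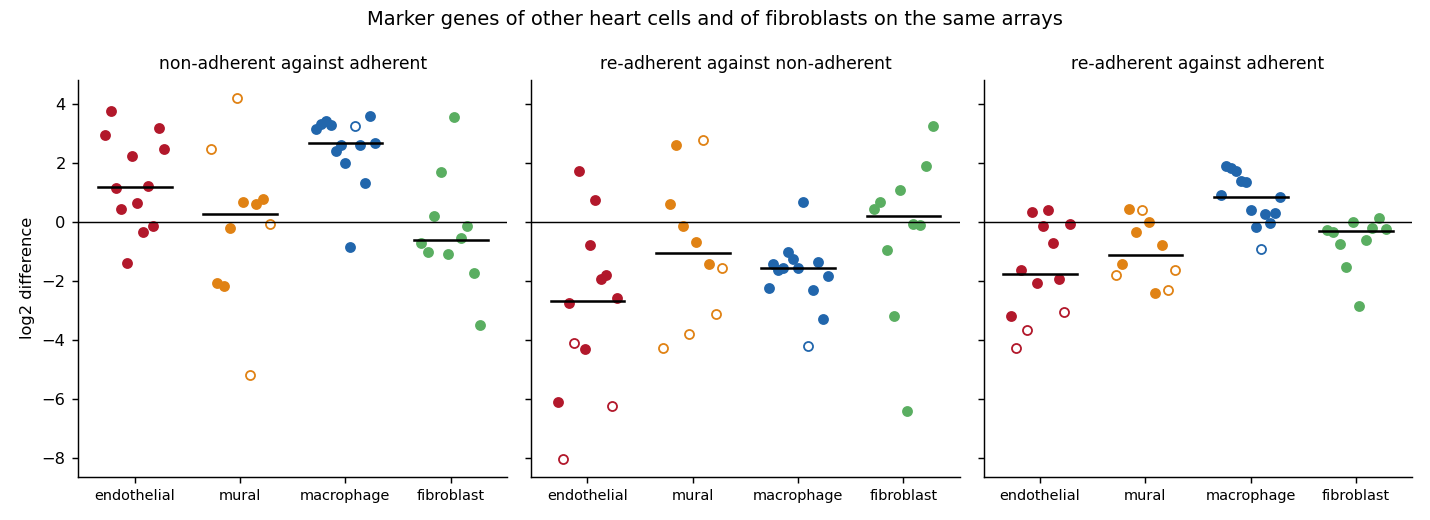
Log2 differences of endothelial, mural, macrophage and fibroblast marker genes in the 3 pairs of arrays, 1 point per gene, with lines at the medians and hollow points where a value was not well above background on at least 1 array. Macrophage markers lie above 0 in suspension for 12 of 13 genes. On re-adhesion the lowest point is the endothelial marker Cldn5 (-8.03, hollow), and the lowest filled point is the fibroblast marker Lum (-6.41).

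Fibroblast markers were higher for 2 (Dcn and Lum) and lower for 4 of 10 in suspension, beside 17.2% and 14.7% of all genes, with a median of -0.63. After re-adhesion 3 were higher and 2, again Dcn and Lum, were lower, beside 15.6% and 16.3% of all genes. Their summed level was 1115, 895 and 842 times the 75th percentile. The sums of the remaining lists were 2.18, 4.69 and 1.92 for endocardial markers, 0.519, 0.846 and 0.665 for Schwann and glial markers, and 2.10, 12.7 and 2.56 for melanocyte markers. Mitf, a melanocyte factor that macrophages also use, had signals of 1229, 8462 and 1225. The sums were 4.14, 2.74 and 8.36 for mesothelial markers and 1.099, 1.81 and 3.22 for cardiomyocyte markers. Most of the cardiomyocyte sum came from Tnnt2, with signals of 593, 955 and 1646. After re-adhesion 1 of 7 cardiomyocyte markers was higher and 4 were lower, beside 15.6% and 16.3% of all genes. In suspension 2 of 5 endocardial, 2 of 7 Schwann and glial, 4 of 5 melanocyte and 4 of 7 cardiomyocyte markers were higher, beside 17.2% of all genes. Of these higher genes, Tmem100, Dct, Tnni3, Myl7 and Mb were not well above background in adherent cells. In the mesothelial list 1 of 7 markers was lower in suspension, beside 14.7% of all genes. After re-adhesion 5 of the 7 were higher, beside 15.6% of all genes. Between re-adherent and adherent cells 4 were higher, beside 4.84%.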

How the data were processed

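RNA of 3 samples was hybridised to 1-colour Agilent SurePrint G3 mouse arrays. Per the study's methods and the deposited files, the authors read spot intensity values, on a linear scale and with background already subtracted, using Agilent Feature Extraction 10.10.1.1. The deposited matrix held intensity values equal to that signal times 1.52, 1.52 and 1.62 for the adherent, suspended and re-adherent cells. The normalisation is not given in the sources used here, and the authors' matrix was kept as an alternative. Slide and scan were shared by all arrays. The array design predates the assembly used for names, so no gene coordinates are given other than those of the RefSeq promoters.

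Control spots and spots flagged as outliers were left out (154, 180 and 175), none was saturated, and spots of a probe were averaged. Log2 signal was reduced by the array's 75th percentile. RefSeq accessions without versions gave symbols (GRCm38.p6) to 27229 of 55665 probes. A gene took its brightest probe among those detected (well above background) at least once, and only Ednrb had 2 among the members. The detection limit, the lowest detected signal, was 16.7, 14.0 and 18.3 units. With 1 array per group nothing was tested, and differences over 2-fold were counted. The members, the list of 74 pathway genes and the marker lists (endothelial, endocardial, mural, macrophage, Schwann and glial, melanocyte, mesothelial, cardiomyocyte and fibroblast) were chosen with earlier results of these data known. Named were all members, the peptides and processing enzymes whatever their value, pathway genes over 2-fold different in any pair, not all of which are printed or plotted (some are not reported here), and the 5 genes nearest to Ednrb and to Edn1 by Euclidean distance. Gnaq, Pde5a, Agtrap and the markers printed were named as well.

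The alternatives were quantile normalisation, no scaling, scaling to spike-in probes, the authors' values, normexp with an offset of 50 (limma 3.58.1), other filters and probe rules, and 4-fold. Steps were tested on simulated data. Python 3.11.15, numpy 2.4.6, pandas 2.3.3 and R 4.3.3 were used.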

Additional observations from a re-analysis of the deposited data

How the results depend on the processing

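Of the members' differences under the alternatives, 201 moved by less than their technical error and 60 moved further, and no called difference changed sign. Many of the 201 could not move. No member spot was flagged or lay in a bright patch of an array, so the settings for such spots altered no member. The mean over probes could alter only Ednrb, and other filters do not change the value of a probe they keep. The ranges given for single members hold these settings too. Counting at 4-fold left 2 lower members in suspension, and normexp and 4-fold each left 2 lower members on the re-adherent against the adherent array. Pathway genes higher in suspension numbered 14 when a gene had to be well above background on all 3 arrays and 12 at 4-fold, and 11 were lower at 4-fold. From suspension to re-adhesion the lower genes numbered 13 and 12 under the same settings. For re-adherent against adherent cells, 1 pathway gene was higher with no scaling, with spike-in scaling, with normexp, with detection on all 3 arrays and with low signals raised to the detection limit, and 0 were higher at 4-fold. The lower genes there numbered 13, 16, 2, 3, 5 and 3 in the same order. Spike-in scaling moved the median of all genes to -0.42 in suspension, -0.08 on re-adhesion and -0.44 between the plastic arrays, no scaling to 0.03, -0.29 and -0.20, and the authors' scaling to 0.03, -0.20 and -0.11. The share of higher genes among those past 2-fold, 53.9%, 48.9% and 49.7% as reported, was 34.4%, 39.8% and 14.1% with spike-in scaling, and 29.8% and 28.6% on re-adhesion and between the plastic arrays with no scaling. It was 34.1% and 35.4% there with the authors' scaling, and 63.8% between the plastic arrays with normexp. The cause of these shifts was not tested. The normexp setting used the median signal of each spot and of its background. No paired analysis was possible because every state had a single array, and for the same reason no replicate could be left out. Dim signals limit the values of Agtr1a, of Edn1 in suspension and of the re-adherent array, where fewer spots were well above background.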
